A study of Homo sapiens with 3 samples.

Results

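Histone lysine methyltransferases, called writers here, and histone lysine demethylases, called erasers, were described across 3 arrays of IMR-90 cells in which the H4K20 methyltransferase SETD8 had been knocked down. IMR-90 is an established line of human fetal lung fibroblasts. The list held 42 genes, 26 writers and 16 erasers that act mainly on histone H3, chosen by name, with earlier results of these data known but by a rule that uses no measured value. The KMT5 genes, which methylate H4K20, and the EZH genes, which methylate H3K27, were not part of it. Of the 42 genes, 41 had a named probe set among the 19775 genes of the array, and 40 passed a filter on low signal that kept 12307 genes. The exceptions were ASH1L, an H3K36 methyltransferase for which no probe set was named, so it is not analysed here, and SETD1A, an H3K4 methyltransferase whose mean signal lay under the filter.

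The cells carried 1 of 3 siRNAs for 24 h: a control siRNA labelled GL3, or 1 of 2 siRNAs labelled SETD8-1 and SETD8-2, here SETD8 siRNA 1 and SETD8 siRNA 2. All cells were grown in the same serum-containing medium and transfected with RNAiMAX reagent, the control included. There was 1 array per siRNA, so the spread between cultures is unknown and p-values are not given. Both comparisons use the same control array, so an error in it would enter both. SETD8 is listed under its current symbol KMT5A. The brightest of its 4 probe sets read 938.9 on the control array, 431.4 on the siRNA 1 array (45.9% of the control signal) and 584.1 on the siRNA 2 array (62.2%). On this probe set the signal of the targeted gene was lower on both arrays but not lost, and under 2-fold lower with SETD8 siRNA 2. Its other probe sets are not given here.

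Lysine methylation is a chromatin mark without a fixed meaning: its effect depends on the residue and on the proteins that read it. Methylated H3K4 marks promoters and enhancers, H3K36 and H3K79 methylation mark the bodies of transcribed genes, and H3K9 and H3K27 methylation mark repressed chromatin. Writers carry a SET domain, with the exception of DOT1L. Erasers of the KDM1 family are flavin-dependent amine oxidases, whereas the Jumonji family uses iron, oxygen and 2-oxoglutarate. In fibroblasts H3K9 methylation and its reader HP1 are known from heterochromatin, including the dense foci of senescent cells.

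NSD2, which dimethylates H3K36, was the member with the largest difference, and it was lower with both SETD8 siRNAs. Its brightest probe set had a signal of 1863.3 on the control array, 531.0 on the siRNA 1 array and 503.8 on the siRNA 2 array. The control signal stood apart from the other two, which lay at 28.5% and 27% of it. The log2 fold changes were -1.81 and -1.89, given here and in all later pairs for SETD8 siRNA 1 and SETD8 siRNA 2 in that order. By the brightest probe set, NSD2 was the only member of the 40 that reached 2-fold lower with both siRNAs, against 3.23% of all genes kept. No member reached 2-fold higher with both, against 1.5% of all genes. A share of 2.50% of members called lower is near that background, so the list as a group did not stand out by this count. Dimmer probe sets above the filter also reached 2-fold with both siRNAs, lower for SUV39H2 and NSD1 and higher for KDM7A and KDM4B.

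The RefSeq promoter of NSD2 is shown because NSD2 was the only member called with both siRNAs, and that of SUV39H2 because, after NSD2, it had the lowest values common to both (-0.80 or lower). Each line gives the 250 bases before the annotated transcription start, 5′ to 3′ on the strand of the gene, from build GRCh38.p14: chr4:1871143-1871392, plus strand, for NSD2 and chr10:14878616-14878865, plus strand, for SUV39H2. Capitals mark matches, on either strand, to 3 short motifs known from promoters of cell cycle genes: GCGGGAA, the core of an E2F site, TTTGAA, the cell cycle homology region or CHR, and CCAAT, the box bound by NF-Y.
NSD2: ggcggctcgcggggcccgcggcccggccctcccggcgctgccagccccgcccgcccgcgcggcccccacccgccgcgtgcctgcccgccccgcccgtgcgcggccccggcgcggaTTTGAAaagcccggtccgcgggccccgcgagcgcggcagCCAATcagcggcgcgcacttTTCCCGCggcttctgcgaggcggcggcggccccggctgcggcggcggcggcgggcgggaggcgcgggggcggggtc
SUV39H2: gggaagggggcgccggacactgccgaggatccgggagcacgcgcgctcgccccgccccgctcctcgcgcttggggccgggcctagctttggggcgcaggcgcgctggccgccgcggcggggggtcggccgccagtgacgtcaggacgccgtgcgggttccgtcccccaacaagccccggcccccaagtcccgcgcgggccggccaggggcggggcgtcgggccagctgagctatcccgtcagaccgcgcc

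The NSD2 window held all 3 motifs without overlap between them. TTTGAA began 135 bases before the start, CCAAT 96 bases before it, and the E2F core, on the reverse strand, covered bases 76 to 70 before it. Across all 35116 promoter windows of that table, GCGGGAA was found in 5.52%, TTTGAA in 13.3%, CCAAT in 32% and all 3 together in 0.148%. Windows were listed for 39 of the 42 members, 54 windows in all. Of these windows, 2 held the E2F core, 3 held TTTGAA and 19 held CCAAT. Counted by gene, the E2F core was found in 2 (KDM1B and NSD2), TTTGAA in 2 (NSD2 and PRDM2) and CCAAT in 15. NSD2 was the only member with all 3, and the SUV39H2 window held none of these letters. The motifs were chosen with the decrease of proliferation genes in these data known, and a match describes letters, not binding.

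**Figure D1:**
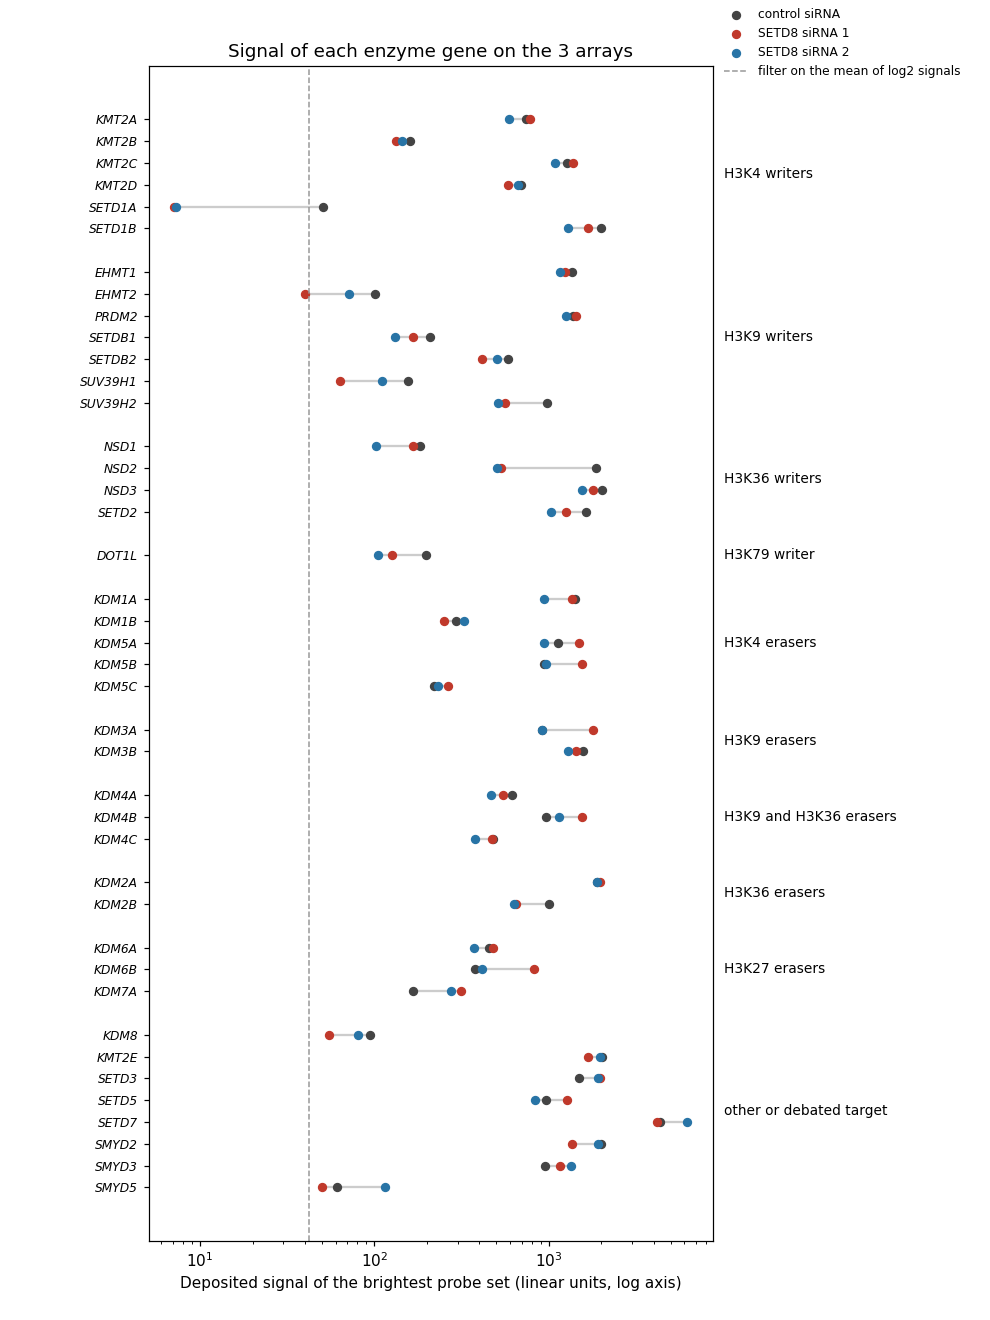
Deposited signal of the brightest probe set of each of 41 genes (horizontal log axis, linear units) on the control array (dark grey), the SETD8 siRNA 1 array (red) and the SETD8 siRNA 2 array (blue), grouped by target lysine, 1 array per point. For most genes the 3 points lie close together, whereas the control point of NSD2 (1863.3) lies well to the right of the other two (531.0 and 503.8), and the dashed line marks the filter at a signal of 42.0.

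All 4 H3K36 writers above the filter were lower than control with both siRNAs, with medians of -0.28 (SD of the 4 genes 0.80) and -0.75 (SD 0.66), and those other than NSD2 were lower by less. Of all genes, 51.6% and 51.1% were lower, and the sign of NSD3 with SETD8 siRNA 1 turned to 0.03 when probe sets were averaged. SETD2, the enzyme that adds the third methyl group to H3K36 behind elongating RNA polymerase, had a signal of 1636.1 on the control array, 1252.3 on the siRNA 1 array and 1036.8 on the siRNA 2 array (-0.39 and -0.66). All 3 of its probe sets above the filter were lower with both siRNAs. NSD1, a paralog of NSD2, had 182.9, 166.7 and 101.7 (-0.13 and -0.85), and its 4 probe sets disagreed with SETD8 siRNA 1, from -1.62 to 0.75. All 4 were lower with SETD8 siRNA 2, from -1.23 to -0.04. The lowest value with each siRNA came from the same NSD1 probe set, with signals of 138.1, 44.9 and 59.0. NSD3, the other paralog, had 2014.2, 1793.5 and 1552.9 (-0.17 and -0.38), and of its 6 probe sets above the filter 4 were higher than control with SETD8 siRNA 1. The paralogs of NSD2 stayed under 2-fold on their brightest probe sets.

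For NSD2 the 5 probe sets above the filter were all lower with both siRNAs. With SETD8 siRNA 1 they ranged from -1.81 to -1.39, with a mean of -1.60 ± 0.16 (SD over 5 probe sets, which share the RNA and are not replicates), and every one was at least 2-fold lower. With SETD8 siRNA 2 they ranged from -1.89 to -0.51, with a mean of -1.24 ± 0.62, and 3 were at least 2-fold lower. The probe set that set the upper end of that range was the single one without a shared suffix (signals 130.0, 45.0 and 91.1). A shared suffix (_s_at, _x_at or _a_at) marks a probe set that can match several transcripts, of the same gene or of others. With shared probe sets left out NSD2 was therefore called with SETD8 siRNA 1 (-1.53) but not with SETD8 siRNA 2 (-0.51).

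Since replicates are lacking, each difference was read against a yardstick: how far apart the siRNA 1 and siRNA 2 arrays lay, without sign, at the 95th percentile of genes in the same signal quartile. It was 2.21 in the dimmest quartile (up to a signal of 184), 1.72 and 1.25 in the next ones and 1.14 in the brightest, and it holds any real difference between the siRNAs as well as array noise. NSD2, in a quartile with a yardstick of 1.25, was beyond it with both siRNAs. No other member was beyond the yardstick of its own quartile with either siRNA. The share of all genes beyond theirs is not given here, so this count is no result about the list. In the quartile of NSD2, 2.44% of genes were as low or lower than NSD2 on the siRNA 1 array and 1.62% on the siRNA 2 array. All differences of other members are smaller than the yardstick of their own quartile and are given as descriptions. Those of KMT5A (-1.12 and -0.68) were smaller than the yardstick of every quartile.

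**Figure D2:**
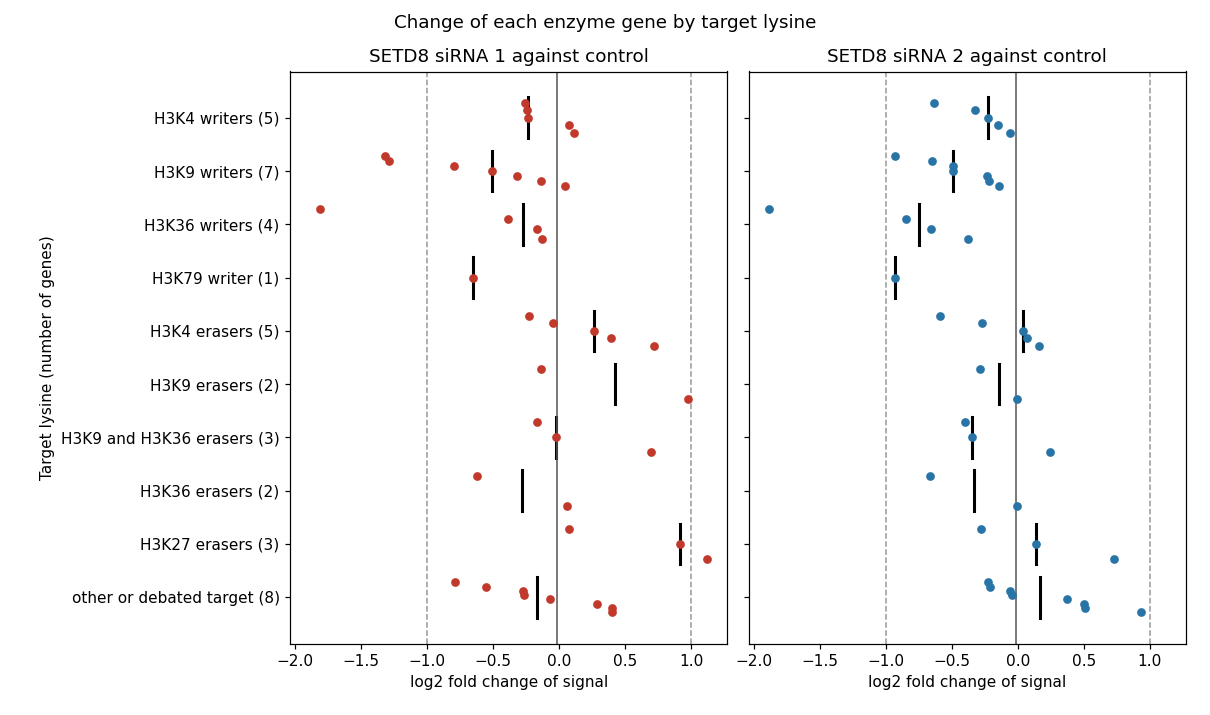
Log2 fold change of signal against control for 40 genes (points), by target lysine, with SETD8 siRNA 1 (left) and SETD8 siRNA 2 (right). Black bars are class medians, the thin solid line is the median of all 12307 genes (-0.02 and -0.01), and dashed lines mark 2-fold. With SETD8 siRNA 1 6 of the 7 H3K9 writers lie left of the solid line and PRDM2 (0.04) lies right of it, all 7 lie left of it with SETD8 siRNA 2, and the erasers of H3K27 spread to the right with SETD8 siRNA 1.

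Of 7 H3K9 writers, 6 had a lower signal on the siRNA 1 array and 7 on the siRNA 2 array, where 51.6% and 51.1% of all genes were lower. Their median log2 fold change was -0.51 (SD of the 7 genes 0.54) and -0.49 (SD 0.28), where all genes had -0.02 and -0.01. With a filter at the 75th percentile, which left 4 of the 7, the medians were -0.32 and -0.23. None of the 7 reached 2-fold lower with both siRNAs on its brightest probe set. SUV39H1 and EHMT2 were at least 2-fold lower with SETD8 siRNA 1, which together with NSD2 made 3 members (7.50%) against 7.75% of all genes. With SETD8 siRNA 2 only NSD2 was so, 1 of 40 members, against 6.65% of all genes. Shares of members this close to or under the background are no result about the list.

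SUV39H1 and SUV39H2 encode the enzymes that trimethylate H3K9 in constitutive heterochromatin. SUV39H1, measured by a single probe set, had a signal of 156.2 on the control array, 63.9 on the siRNA 1 array and 110.9 on the siRNA 2 array (-1.29 and -0.49). SUV39H2 had 983.4, 565.1 and 514.6 on its brighter probe set (-0.80 and -0.93) and 210.0, 56.6 and 79.6 on the other (-1.89 and -1.40). For both genes the control array had the highest signal. The second SUV39H2 probe set carries no shared suffix, and with shared probe sets left out, or with probe sets averaged, SUV39H2 met the 2-fold rule on the lower side with both siRNAs. SUV39H1 has no value with shared probe sets left out.

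EHMT2 and EHMT1, also called G9a and GLP, form the dimer that mono- and dimethylates H3K9 in euchromatin. EHMT2 was dim, with a signal of 100.2 on the control array, 40.2 on the siRNA 1 array and 71.1 on the siRNA 2 array (-1.32 and -0.49), and its second probe set above the filter gave -1.08 and -0.73. EHMT1 had 1360.7, 1238.2 and 1157.8 (-0.14 and -0.23). EHMT2 lay in the dimmest quartile, and its control signal was the highest of its 3 arrays.

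SETDB1, which works with the corepressor TRIM28 at silenced repeats, had 207.8, 166.3 and 132.0 (-0.32 and -0.65), and both of its probe sets were lower with both siRNAs. SETDB2 had 586.8, 411.8 and 503.0 (-0.51 and -0.22), with 3 of 4 probe sets above the filter lower with each siRNA. PRDM2, a PR-domain protein, had 1386.0, 1427.5 and 1256.1 (0.04 and -0.14). PRDM2 was the only H3K9 writer above control with SETD8 siRNA 1, and its value turned to -0.09 when all of its probe sets were averaged. The order of the 7 genes is not settled beyond the yardstick.

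**Figure D3:**
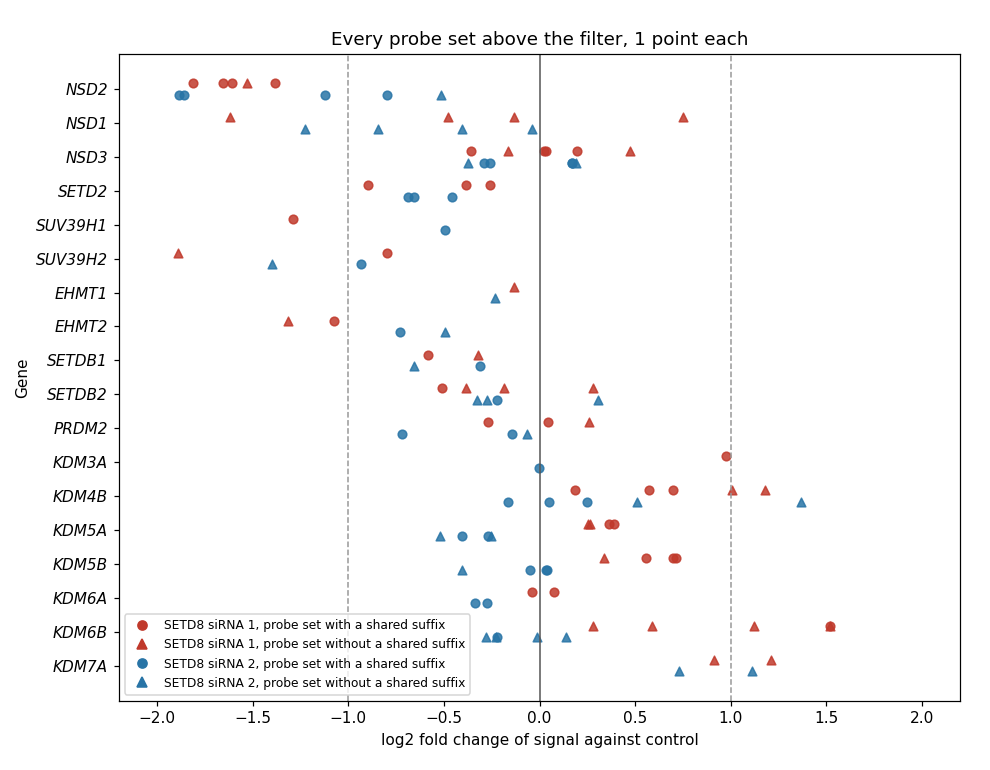
Log2 fold change against control of every probe set above the filter for 18 of the genes, with SETD8 siRNA 1 (red) and SETD8 siRNA 2 (blue), where circles are probe sets with a shared suffix and triangles those without. All 5 NSD2 probe sets lie left of 0 with both siRNAs, the 4 of KDM5A lie right of 0 with SETD8 siRNA 1 and left of it with SETD8 siRNA 2, and both KDM7A probe sets lie right of 0 with both.

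Of the 5 H3K4 writers above the filter, 3 had a lower signal on the siRNA 1 array, against 51.6% of all genes. All 5 were lower on the siRNA 2 array, against 51.1% of all genes. These are the catalytic subunits of the COMPASS complexes, SETD1B and KMT2A to KMT2D, and the 5 that passed the filter had medians of -0.24 (SD over members 0.19) and -0.23 (SD 0.22), with no member at 2-fold with either siRNA. SETD1B had a signal of 1998.1 on the control array, 1683.8 on the siRNA 1 array and 1285.2 on the siRNA 2 array (-0.25 and -0.64). KMT2A, also called MLL1, had 745.0, 785.3 and 593.4 (0.08 and -0.33). Its other probe sets were lower: of 6 above the filter, 5 were below control on the siRNA 1 array and 6 on the siRNA 2 array. Of these 6, 2 were at least 2-fold lower with SETD8 siRNA 1 and 0 with SETD8 siRNA 2. The mean of the 6 was -0.42 ± 0.51 and -0.61 ± 0.18 (SD over 6 probe sets). The sign of KMT2A with SETD8 siRNA 1 therefore depends on the probe set.

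KMT2C and KMT2D, the enhancer-associated pair, had 1274.7, 1373.7 and 1089.9 (0.11 and -0.23) and 691.0, 585.1 and 663.5 (-0.24 and -0.06). Their signs with SETD8 siRNA 1 turned as well when probe sets were averaged, to -0.19 for KMT2C and 0.33 for KMT2D over the probe sets above the filter. KMT2B had 160.2, 133.7 and 144.1 (-0.26 and -0.15). SETD1A, under the filter, had 50.5 in the control and 7.1 and 7.3 with the SETD8 siRNAs, both below the floor of 11.7 under which signals were set to that value. No fold is given for it.

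DOT1L, the sole H3K79 methyltransferase of the list, had a signal of 198.9 on the control array, 126.5 on the siRNA 1 array and 104.5 on the siRNA 2 array (-0.65 and -0.93). Its second probe set above the filter gave 0.09 and -0.40, so the value with SETD8 siRNA 1 rested on 1 probe set.

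Another 7 SET-domain genes have no agreed histone target or are best known for other substrates. SETD7, which methylates H3K4 in vitro and many other proteins, had 4372.6, 4165.7 and 6228.1 (-0.07 and 0.51). SETD3, an actin histidine methyltransferase, had 1485.8, 1961.2 and 1927.4 (0.40 and 0.38), but its second probe set was lower with both siRNAs (-0.17 and -0.45). SMYD3 had 951.8, 1159.8 and 1346.4 (0.29 and 0.50). SMYD3 and SETD3 were above control on both SETD8 arrays, and SETD7 on the siRNA 2 array alone.

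SETD5 had 963.2, 1267.8 and 833.4 (0.40 and -0.21), and SMYD5 had 60.7, 50.3 and 115.8 (-0.27 and 0.93). SMYD5 was the only member for which the SETD8 siRNA arrays lay at least 2-fold apart, by 1.20 on the log2 scale, where 6.18% of all genes were at least 2-fold higher with SETD8 siRNA 2 than with SETD8 siRNA 1. None of the 40 members was at least 2-fold lower in that comparison, against 6.38% of all genes. It was also dim, in the quartile with a yardstick of 2.21. SMYD2, which methylates p53, had 1998.9, 1360.3 and 1918.6 (-0.56 and -0.06), and KMT2E, a chromatin reader without clear catalytic activity, had 2020.5, 1674.1 and 1961.9 (-0.27 and -0.04).

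With SETD8 siRNA 1, 9 of 16 erasers were above control and 7 below it, with a median of 0.07 (SD over members 0.56). With SETD8 siRNA 2, 6 were above control and 10 below it, and the median was -0.12 (SD 0.35). The writers had medians of -0.25 (SD 0.54) and -0.23 (SD 0.57), with 18 and 20 of 24 genes lower. Of all genes, 51.6% and 51.1% were lower than control, and no difference between the groups was tested. A direct comparison of the SETD8 siRNA arrays does not use the control: 14 of 16 erasers had a lower signal with SETD8 siRNA 2 than with SETD8 siRNA 1, as did 14 of 24 writers and 50.2% of all genes. The median difference of the erasers, siRNA 2 minus siRNA 1, was -0.28 (SD 0.42), with KDM1B and KDM8 the exceptions. Without shared probe sets the count was 9 of 11 (48.6% of all genes), and with all probe sets averaged 12 of 15 (49.0% of all genes).

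The erasers of H3K27 included the eraser with the largest value against control. KDM6B, also called JMJD3 and known as a gene induced by inflammatory signals, had a signal of 379.3 on the control array, 825.3 on the siRNA 1 array and 416.9 on the siRNA 2 array (1.12 and 0.14). The SETD8 siRNA 1 array stood apart from the other two, which were close. All 5 KDM6B probe sets were above control with SETD8 siRNA 1, from 0.28 to 1.52, and 4 were below it with SETD8 siRNA 2. KDM6B was the only member at least 2-fold higher with SETD8 siRNA 1 (2.50% of members, against 5.48% of all genes), and none was so with SETD8 siRNA 2 (4.46% of all genes).

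KDM7A, which demethylates H3K9 and H3K27, was the eraser with the highest value with SETD8 siRNA 2. Its signal was 167.3 on the control array, 314.6 on the siRNA 1 array and 276.9 on the siRNA 2 array (0.91 and 0.73). The dimmer second probe set had 43.4, 100.4 and 93.8 (1.21 and 1.11), so both SETD8 arrays lay above the control on both probe sets. In its quartile of signal, 6.53% of genes were as high or higher on the siRNA 1 array and 7.48% on the siRNA 2 array. KDM6A, also called UTX, had 452.4, 476.6 and 373.3 (0.08 and -0.28).

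Among the erasers of H3K9, KDM3A, known as a hypoxia-induced gene, had 917.0, 1803.9 and 914.0 (0.98 and -0.0047). Its signal was thus nearly equal on the control and SETD8 siRNA 2 arrays and higher only with SETD8 siRNA 1, on the single probe set above the filter. KDM3B had 1574.4, 1433.7 and 1291.8 (-0.14 and -0.29). The KDM4 enzymes act on both H3K9 and H3K36. KDM4B had 961.1, 1558.0 and 1139.8 (0.70 and 0.25), with all 5 probe sets above the filter higher with SETD8 siRNA 1 and 4 of them with SETD8 siRNA 2. KDM4A had 615.3, 546.7 and 466.7 (-0.17 and -0.40), and KDM4C 479.0, 469.8 and 375.6 (-0.03 and -0.35). KDM4B was above control on both SETD8 arrays, and KDM4A was below it on both. KDM4C was close to control with SETD8 siRNA 1, where its sign turned with median scaling (0.0004) and quantile normalization (0.07). Its second probe set above the filter gave -0.72 and 0.01.

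Of the 5 erasers of H3K4, 3 were above control with each siRNA on their brightest probe sets. KDM5A and KDM1B changed side between the siRNAs, in opposite directions. KDM5B, a demethylase of H3K4 trimethylation, had 940.9, 1545.1 and 967.3 (0.72 and 0.04), and its 4 probe sets above the filter were all higher with SETD8 siRNA 1. With SETD8 siRNA 2, 2 of these 4 were lower, and the value of KDM5B turned to -0.41 without shared probe sets. KDM5A, the paralog first found as a protein that binds RB, had 1133.7, 1486.0 and 939.6 (0.39 and -0.27). All 4 of its probe sets above the filter were higher than control with SETD8 siRNA 1, from 0.25 to 0.39, and all 4 were lower with SETD8 siRNA 2, from -0.52 to -0.25. KDM5A was therefore on opposite sides of the control with the siRNAs. When its probe set below the filter was averaged in, the value with SETD8 siRNA 1 turned to -0.30.

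KDM5C had 220.4, 264.5 and 231.1 (0.26 and 0.07), and its second probe set gave 0.16 and -0.37. KDM1A, also called LSD1, had 1416.3, 1369.3 and 938.3 (-0.05 and -0.59), and KDM1B had 293.0, 249.5 and 327.2 (-0.23 and 0.16). The class medians were 0.26 (SD over members 0.37) and 0.04 (SD 0.31). The sign of the first turned when all probe sets were averaged (-0.049), and that of the second when they were averaged (-0.15), without shared probe sets (-0.09) and with a filter at the 75th percentile (-0.27). KDM1A and KDM5A had the lower values of the class with SETD8 siRNA 2.

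Of the erasers of H3K36, KDM2B, a subunit of a variant Polycomb complex that binds unmethylated CpG islands, was lower with both siRNAs. It had 1000.0 on the control array, 649.1 on the siRNA 1 array and 629.5 on the siRNA 2 array on its single probe set (-0.62 and -0.67). Its paralog KDM2A had 1902.0, 1976.2 and 1895.0, nearly equal on all arrays (0.06 and -0.01). KDM8, whose target is debated, had 94.9, 55.0 and 80.9 (-0.79 and -0.23).

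**Figure D4:**
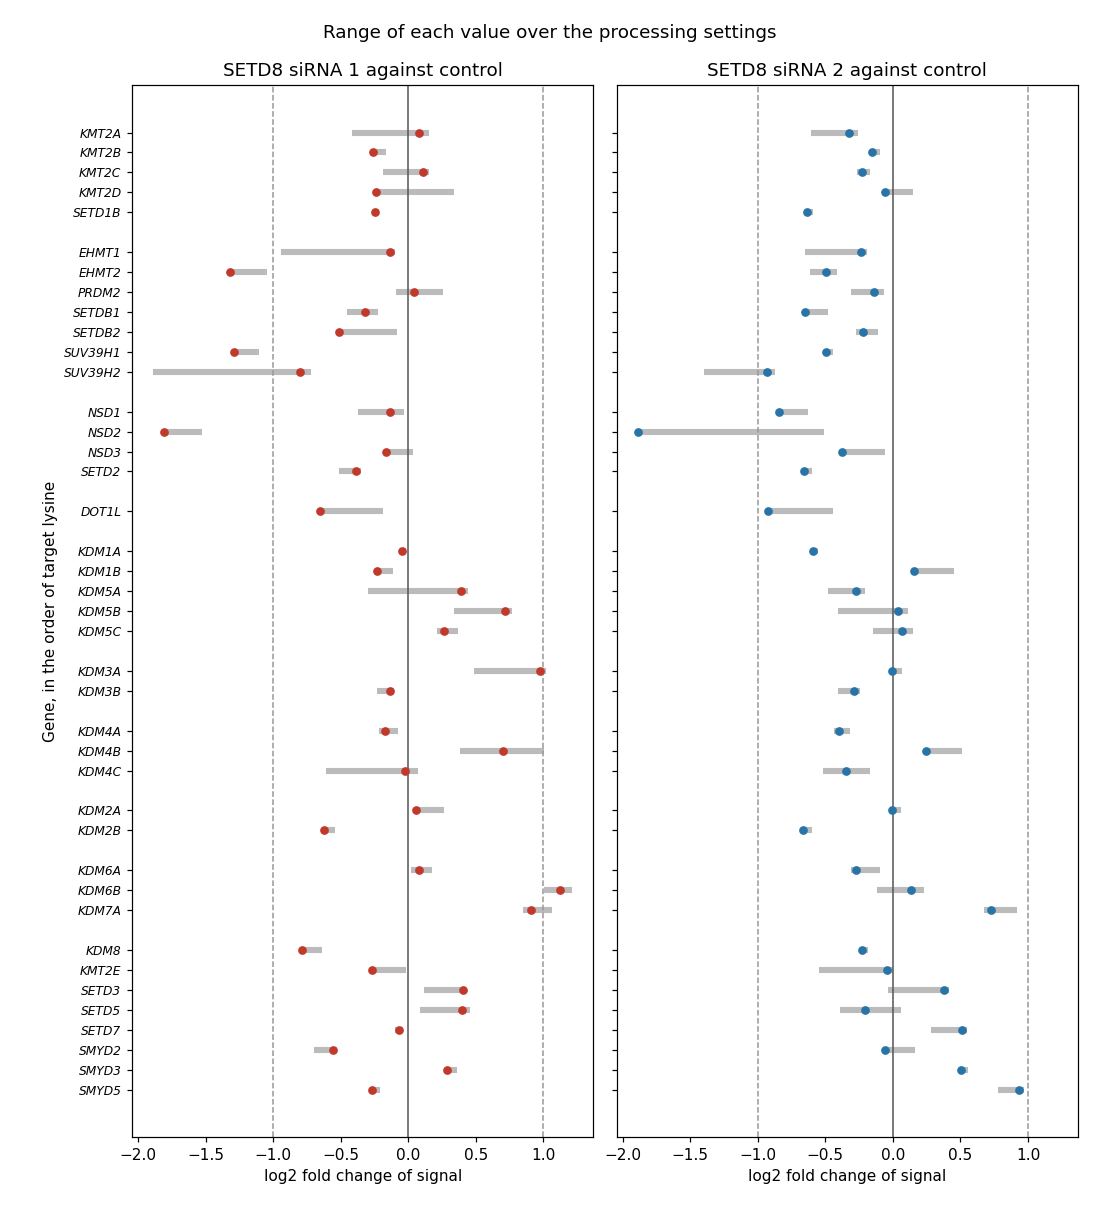
Log2 fold change against control of each of 40 genes, in the order of target lysine, with SETD8 siRNA 1 (left) and SETD8 siRNA 2 (right). Points are the values reported, and grey bars span the lowest to the highest value over the main and 8 other processing settings, where these gave a value. The bar of NSD2 stays left of 0 but reaches -0.51 with SETD8 siRNA 2, and those of KDM7A stay right of 0 on both sides.

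Partner and reader genes were taken from lists chosen by function. Of 14 partners of the H3K4 writers, 1 met the 2-fold rule with both siRNAs, on the lower side, against 3.23% of all genes, so a single call in a list this short is no result about the list, nor are those in the other lists. This was PSIP1, also called LEDGF, a reader of H3K36 methylation that tethers KMT2A, with a signal of 3645.2 on the control array, 1465.9 on the siRNA 1 array and 1102.0 on the siRNA 2 array (-1.31 and -1.73, or -0.94 and -1.32 with all probe sets averaged). The list medians were -0.27 and -0.23. Of 11 H3K9 partners and readers 1 met it, also on the lower side, UHRF1, which reads H3K9 methylation at replicating DNA, with 6679.3, 1360.9 and 1622.9 (-2.295 and -2.04). The medians of that list were -0.27 and -0.40.

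Of 10 H3K36 readers and partners 1 met it on the lower side, PHF19, a Polycomb-like reader of H3K36 methylation, with 2125.2, 939.7 and 972.6 (-1.18 and -1.13). The medians were 0.10 and 0.04. None of 6 partners of DOT1L was 2-fold apart from control with both siRNAs, and the largest mean absolute changes over both siRNAs were those of MLLT3 (-0.67 and -1.01, or 0.50 and -0.28 without shared probe sets) and MLLT1 (-0.51 and -0.77). None of 14 partners of the erasers and none of 11 other Jumonji proteins was so either. By the same measure the largest were those of BCOR (0.67 and 0.60) and PHF21A (0.45 and 0.30, or -0.24 and -0.14 without shared probe sets) among the former, and JARID2 (1.28 and 0.25) and PHF2 (-0.61 and -0.53) among the latter.

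All proliferation markers on the list were lower than control with both siRNAs. Of 20 markers 18 met the 2-fold rule on the lower side with both siRNAs, with medians of -2.48 and -2.18, and their signals summed to 86451 on the control array, 20414 on the siRNA 1 array and 21429 on the siRNA 2 array. MKI67 had 814.8, 143.1 and 193.6, and CCNA2 had 3697.0, 722.9 and 716.4. The part of proliferation in the values of NSD2, SUV39H1, SUV39H2, UHRF1 and PSIP1 was not tested. In RNA from whole cultures, fewer cells of a kind and less RNA per cell cannot be told apart.

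All 12 fibroblast markers passed the filter, COL1A1 and FN1 among them at signals of 33451.1 and 29570.6 in the control, and their summed signal, carried by the brightest of them, lay between 193116 and 213150. Single fibroblast markers differed more: DCN had 20075.4, 7745.9 and 22971.2, S100A4 had 1237.3, 2256.6 and 3965.8, and LUM had 13728.6, 10701.6 and 23797.7. Of 8 epithelial markers 4 passed, and ESRP1 was under the floor on all arrays. The summed signal was 3576.2, 3405.9 and 7002.9, of which KRT18 made most (2987.4, 2962.8 and 6010.1). All 4 that passed were higher than control with SETD8 siRNA 2 (median 0.99), where 51.1% of all genes were lower. EPCAM was also lower with SETD8 siRNA 1 (157.1, 49.1 and 194.2). Of 6 endothelial markers 3 passed, with a summed signal of 1386.9, 1582.9 and 2193.3, and CDH5 was under the floor on all arrays. TEK made most of that sum, with 1251.3, 1274.8 and 2033.1 (0.03 and 0.70). The other 2 that passed were dim. PECAM1 had 49.0, 135.0 and 52.7 and VWF had 59.7, 130.5 and 80.9, both over 2-fold higher with SETD8 siRNA 1 at signals near the filter. Of 6 leukocyte markers 1 passed, and the 5 measured summed to 101.8, 170.0 and 188.3. The part of these markers in the values of the enzymes was not tested. Each array held 54613 probe sets, with a median signal between 44.9 and 46.2.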

How the data were processed

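The authors deposited intensity on a linear scale for every probe set of a 1-colour array, computed with MAS5 according to the submitters' processing notes, without its version or settings. All arrays had the same trimmed mean, so a shift shared by all genes would not be seen. No further scaling was applied. With 1 array per siRNA the number of arrays limits the precision. Probe sets were named through the platform annotation in GEO, with symbols brought up to date by gene number from RefSeq, GRCh38.p14 (41037 of 41091 probe sets with 1 symbol). Another 1801 had several symbols and 11721 were not listed; neither kind was named. A floor of 11.7, the 25th percentile of the signals, was applied before taking log2. The brightest probe set by mean log2 stood for each gene, and genes whose mean lay under the median of all probe sets (5.39) were left out. Each SETD8 array was set against the control array, and a gene was called at 2-fold. No level is compared between probe sets. Named were KMT5A, every member, and of each partner list the genes called with both siRNAs or else the 2 with the largest mean change, beside MKI67, CCNA2 and bright markers. ESRP1, CDH5, KRT18, EPCAM, DCN, S100A4, LUM, PECAM1, VWF and TEK were named after their values were seen. The members, lists and motifs were chosen with earlier results of these data known. The count of calls was tested on simulated data. The alternatives tried were scaling to the median, quantile normalization, adding 16 in place of the floor, no filter or one at the 75th percentile, probe sets averaged, shared probe sets left out, thresholds of 1.5-fold and 3-fold, and debated targets placed by lysine. The mean over probe sets above the filter was added after seeing the data, as were the counts of H3K9 writers below control and of genes lower with SETD8 siRNA 2 than with SETD8 siRNA 1. Python 3.11.15, numpy 2.4.6, pandas 2.3.3 and matplotlib 3.10.9 were used.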

Additional observations from a re-analysis of the deposited data

How the results depend on the processing

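No paired analysis was possible because each siRNA had 1 array. NSD2 was lower under all 8 settings run beside the main one, and no member turned its sign in a comparison where it was called at 2-fold, under the settings that gave it a value. The sign did not turn under any setting that gave a value for 33 of 40 members with SETD8 siRNA 1 and 31 with SETD8 siRNA 2, of which 14 and 15 had a value under every setting. Scaling moved the median of all genes by at most 0.041.

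Members at least 2-fold lower with both siRNAs numbered 1, or 2 without a filter (with SETD1A), with probe sets averaged or with those above the filter averaged (with SUV39H2), and 4 at 1.5-fold (with DOT1L, KDM2B and SUV39H2). Without shared probe sets the count stayed 1 but the gene was SUV39H2, not NSD2. Members higher with both went from 0 to 1 at 1.5-fold (KDM7A). Lower members with SETD8 siRNA 1 went from 3 to 1 with a filter at the 75th percentile or at 3-fold and to 7 at 1.5-fold. Higher members with SETD8 siRNA 1 went from 1 to 2 with median scaling, with either averaging or without shared probe sets, to 3 with quantile normalization, to 5 at 1.5-fold and to 0 at 3-fold. With SETD8 siRNA 2, lower members went from 1 to 2 without a filter or with either averaging and to 9 at 1.5-fold, and higher members from 0 to 2 at 1.5-fold. The shares of all genes called under these other settings and thresholds are not given here, so these counts are no result about the list. A filter at the 75th percentile left 4 H3K9 writers, of which 3 and 4 were lower, against 49.9% and 49.5% of all genes. Without shared probe sets 9 of 11 erasers were lower with SETD8 siRNA 2 than with SETD8 siRNA 1, against 48.6% of all genes.

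Class medians moved by at least the SD over members divided by the root of their number in these cases. That cut only picks which moves are listed. Members are not replicates, so it does not measure the error of a median. H3K4 writers went from -0.24 with SETD8 siRNA 1 to -0.15 (quantile normalization), -0.082 (75th percentile) and -0.070 (debated targets placed), and to -0.39 with SETD8 siRNA 2 (probe sets averaged). H3K4 erasers went to -0.049 with SETD8 siRNA 1 (probe sets averaged), and with SETD8 siRNA 2 to -0.27 (75th percentile) and -0.15 (either averaging). H3K9 writers went to -0.23 (75th percentile) and -0.39 (no shared probe sets) with SETD8 siRNA 2. H3K36 erasers went to 0.055 and -0.0053 (no shared probe sets) and to -0.62 with SETD8 siRNA 1 (debated targets placed). H3K27 erasers went from 0.14 to 0.43 with SETD8 siRNA 2 (no shared probe sets). Their sign turned, by less than that cut, at the 75th percentile (-0.070), with probe sets averaged (-0.095) and with those above the filter averaged (-0.12). The erasers of H3K9 and H3K36 turned likewise with SETD8 siRNA 1, from -0.03 to 0.0004 (median scaling) and 0.07 (quantile normalization). Genes with other or debated targets went to 0.11 (75th percentile) and 0.063 (debated targets placed) with SETD8 siRNA 1 and to -0.049 with SETD8 siRNA 2 (mean of probe sets above the filter). The cause of these moves was not tested. Fewer members had a value under the stricter filter and without shared probe sets, and in the latter case some genes were also read from another probe set. No value could be had for the H3K9 erasers without shared probe sets or for DOT1L at the 75th percentile. Signals near the floor, such as that of SETD1A, cannot be told from background.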
